A study of Homo sapiens with 12 samples.

Results

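In the hepatoma line HepG2, 87 of 26485 genes counted had at least 2 times the Empty level in every one of the lines Z9, Z5 and Z2. They were chosen by their mean CPM (counts per library total, scaled to a total of 1000000): the lowest mean among Z9, Z5 and Z2 had to be 1 CPM or more and at least 2 times the Empty mean. Of 12382 genes whose lowest mean reached 1 CPM, called expressed genes here, 107 were doubled, and 20 of these were set aside by a list of symbols and symbol beginnings, which left 87. All 87 passed the filter on low counts. Because the difference from Empty chose these genes, it is given as a description without a test, and tests are limited to differences among Z9, Z5 and Z2.

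HepG2 is an established human line from a liver tumour that still makes many plasma proteins. Z9, Z5 and Z2 are stable HepG2 lines transfected with CRISPR constructs carrying guides named sgZHX3-9, sgZHX3-5 and sgZHX3-2, and their genotype is labelled ZHX3-depleted. Empty is the stable line that received the construct without a guide, and its genotype is labelled WT. All 4 lines were selected with blasticidin, and each was seeded in 3 wells, a, b and c, of a 24-well plate, so that n = 3 wells per line. Whether a line was a clone or a pool is not given in the sources used here. P-values cover only variation among wells within lines, and what Empty alone differs by cannot be told apart from an effect common to the 3 vectors.

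ZHX3 belongs to the zinc fingers and homeoboxes family of nuclear proteins, which are known as transcriptional repressors. Family members were described as binding partners of NF-Y, a factor that recognises CCAAT boxes in promoters. Genes of neurons, blood cells, vessels and germ cells are normally low or silent in hepatocytes.

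ZHX3 itself stood at 33.6 to 35.4 CPM in Z9 wells, 32.2 to 33.5 CPM in Z5 wells, 33.5 to 35.3 CPM in Z2 wells and 32.5 to 33.4 CPM in Empty wells, so its transcript count did not separate the lines. Counts of a transcript do not measure edited alleles or protein. Library totals ran from 50864744 to 65428204 counts. The summed level of 10 hepatocyte markers was 41026 to 45715 CPM over labelled wells and 47848 to 49929 CPM over Empty wells. ALB averaged 12134 CPM in Z9, 11412 in Z5, 11455 in Z2 and 17496 in Empty, and its labelled wells were all below its Empty wells. Those of APOB were also all below, and those of APOA1 all above. Of 7 stellate or fibroblast markers the summed level was 42.2 to 57.6 CPM over labelled wells and 45.6 to 48.3 CPM over Empty wells, with DCN at 0 counts in all 12 wells. Of 5 endothelial markers it was 6.59 to 8.50 CPM over labelled wells and 6.23 to 6.36 CPM over Empty wells, with KDR at 0 in all wells and TEK at 2 counts or fewer. The junction gene CDH5 averaged 1.34 CPM in Z9, 1.62 in Z5, 1.66 in Z2 and 0.484 in Empty, with all labelled wells above all Empty wells. Of 5 leukocyte markers it was 1623 to 2137 CPM over labelled wells and 1816 to 1987 CPM over Empty wells. Most of that sum is LYZ, and PTPRC, the pan-leukocyte gene, had at most 2 counts in a well. Of 5 cholangiocyte markers it was 1284 to 1541 CPM over labelled wells and 1026 to 1135 CPM over Empty wells, with CFTR at 0 or 1 counts in every well. SPP1 in that list averaged 640 CPM in Z9, 592 in Z5, 580 in Z2 and 329 in Empty. It alone of the 5 had all labelled wells above all Empty wells. KRT19 averaged 445 CPM in Z9, 479 in Z5, 520 in Z2 and 442 in Empty, with overlapping wells. SOX9 averaged 305 CPM in Z9, 302 in Z5, 312 in Z2 and 307 in Empty. KRT7, at 2 to 8 counts in a well, averaged 0.0782 CPM in Z9, 0.0767 in Z5, 0.0565 in Z2 and 0.114 in Empty. The part of these levels in the results below was not tested. In such bulk libraries, more cells of a kind and more RNA per cell cannot be told apart.

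Promoters of 4 of these genes are shown because the genes have the largest ratios to Empty among those with a promoter in the RefSeq table at their gene start. Each runs from 250 bases before to 50 bases after the start, 5′ to 3′ on the gene's strand, on assembly GRCh38.p14. Capitals mark matches on either strand to the GC box GGGCGG and the CCAAT box, the searched motifs found in these windows. ABLIM3 is on the plus strand at chr5:149141243-149141542, VCAN on the plus strand at chr5:83471494-83471793, MAGEA3 on the plus strand at chrX:152698544-152698843 and PRAME on the minus strand at chr22:22559216-22559515.
ABLIM3: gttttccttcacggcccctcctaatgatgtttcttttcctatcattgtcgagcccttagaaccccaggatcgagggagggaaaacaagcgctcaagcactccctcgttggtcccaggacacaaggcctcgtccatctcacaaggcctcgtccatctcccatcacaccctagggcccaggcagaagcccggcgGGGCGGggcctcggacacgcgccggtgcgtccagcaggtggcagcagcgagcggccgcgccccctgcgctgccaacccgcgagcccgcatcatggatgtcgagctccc
VCAN: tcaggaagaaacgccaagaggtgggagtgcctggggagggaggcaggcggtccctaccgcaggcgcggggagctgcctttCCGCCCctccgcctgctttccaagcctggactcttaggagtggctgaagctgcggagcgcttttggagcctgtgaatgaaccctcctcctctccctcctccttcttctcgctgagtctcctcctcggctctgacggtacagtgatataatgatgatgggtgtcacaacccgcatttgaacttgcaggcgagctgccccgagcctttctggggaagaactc
MAGEA3: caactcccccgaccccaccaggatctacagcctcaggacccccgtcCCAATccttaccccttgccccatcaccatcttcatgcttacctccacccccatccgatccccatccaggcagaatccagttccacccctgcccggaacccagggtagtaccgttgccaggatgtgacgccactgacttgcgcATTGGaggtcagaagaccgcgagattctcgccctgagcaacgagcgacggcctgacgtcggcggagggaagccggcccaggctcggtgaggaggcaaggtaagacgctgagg
PRAME: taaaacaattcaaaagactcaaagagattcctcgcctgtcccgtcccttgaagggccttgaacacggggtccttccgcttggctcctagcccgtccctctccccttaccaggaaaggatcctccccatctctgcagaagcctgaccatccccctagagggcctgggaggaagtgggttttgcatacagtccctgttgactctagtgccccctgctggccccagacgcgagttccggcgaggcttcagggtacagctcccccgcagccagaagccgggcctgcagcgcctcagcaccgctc
ABLIM3 and VCAN each hold 1 GC box, MAGEA3 holds 2 CCAAT boxes, 1 in each orientation, and PRAME holds none of the 9 motifs searched. The table's window for SDK1, which ranks beside VCAN, starts at 4129435 on chromosome 7, far inside the gene from 3301252 to 4269000, and is not shown.

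Most of the 87 genes lay only a little above the limit. The median ratio to Empty was 2.57 in Z9, 2.58 in Z5 and 2.61 in Z2, while the median over all expressed genes was 1.01 in Z9, 0.995 in Z5 and 0.994 in Z2. The lowest of a gene's 3 ratios was 2.5 or more for 35 genes, 3 or more for 13 and 5 or more for 3, with a median of 2.32. In 85 of the 87, all 9 labelled wells lay above all 3 Empty wells, against 10.6% of expressed genes, and this follows largely from the choice. The exceptions were GMFG, with 0.696 CPM in Z9 well a against 0.706 CPM in Empty well b, and BEX2, with 0.686 CPM in Z2 well b against 0.963 CPM in Empty well c.

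**Figure D1:**
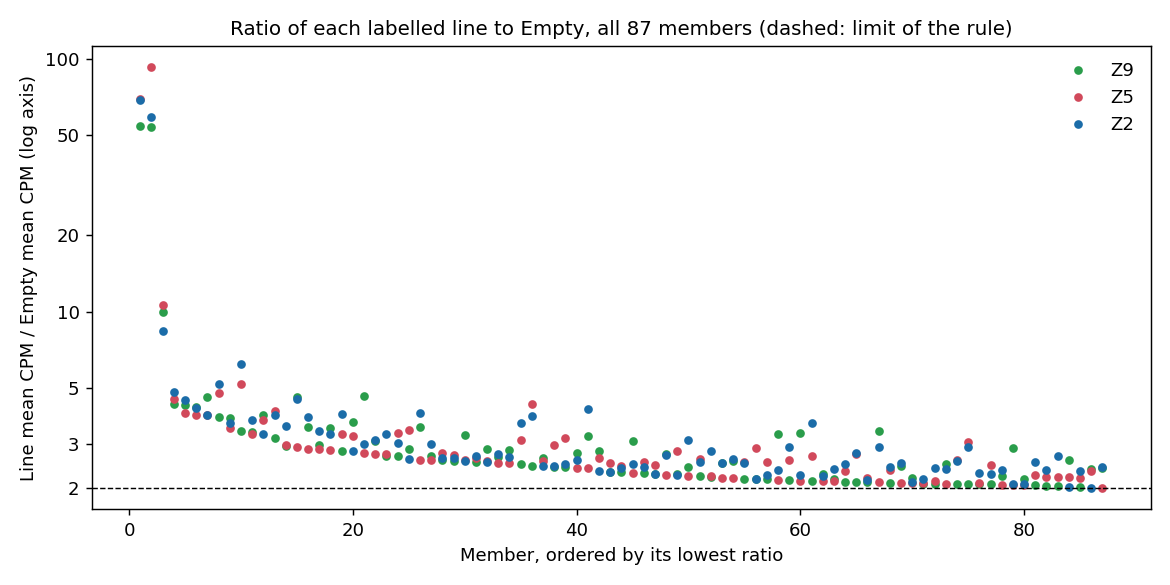
Ratio of the mean CPM of Z9 (green), Z5 (red) and Z2 (blue) to the Empty mean for each of the 87 genes, ordered by the lowest of the 3 ratios, on a log axis; the dashed line is the 2-fold limit of the rule. 3 genes stand apart on the left with a lowest ratio of 5 or more, and the median of the lowest ratio is 2.32.

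The widest ratios belonged to 2 cancer-testis genes, a class that is normally active in germ cells and switched on in many tumours. MAGEA3, a MAGE family protein that works with ubiquitin ligases, had 1.07, 1.27 and 1.39 CPM in Z9 wells, 1.52, 1.64 and 1.65 CPM in Z5 wells, 1.73, 1.33 and 1.66 CPM in Z2 wells and 0, 0.0689 and 0 CPM in Empty wells. The groups did not overlap, and the 4 Empty counts all came from well b. The lowest labelled line, Z9, pooled 206 counts, a ratio of 54.3 to Empty with an exact 95% counting interval of 20.9 to 201. PRAME, a repressor of retinoic acid receptor signalling, had 1.77, 1.94 and 1.93 CPM in Z9 wells, 3.14, 3.64 and 2.96 CPM in Z5 wells, 1.63, 2.23 and 2.29 CPM in Z2 wells and 0.0590, 0 and 0.0459 CPM in Empty wells. Its 6 Empty counts came from wells a and c, and Z9, pooling 311 counts, had a ratio of 54.7 with a counting interval of 24.8 to 150. Such intervals cover counting error only. They leave out the spread between wells and the choice of the genes by this same ratio, so they are not a test. MAGEA3 is nearly identical to MAGEA6, and how reads that fit both were counted is not given in the sources used here, so each gene's share is uncertain. MAGEA6, which is no member, had 80 counts in Z9, 36 in Z5, 99 in Z2 and 0 in Empty. Against a limit of 3 counts over the Empty line, it was at least 12.4-fold higher in each labelled line. The sum of both genes was 286 counts in Z9, 305 in Z5, 350 in Z2 and 4 in Empty. MEI1, a meiosis gene, had means of 2.22 ± 0.251 CPM in Z9, 2.35 ± 0.248 CPM in Z5, 2.26 ± 0.240 CPM in Z2 and 0.857 ± 0.186 CPM in Empty (SD, n = 3 wells). Of the 18 other tested genes of a germline and cancer-testis list, 2 rose and 1 fell in the mean of the labelled lines against Empty by edgeR's test at an adjusted p under 0.05. By that test 13.0% of all genes tested rose and 12.6% fell.

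**Figure D2:**
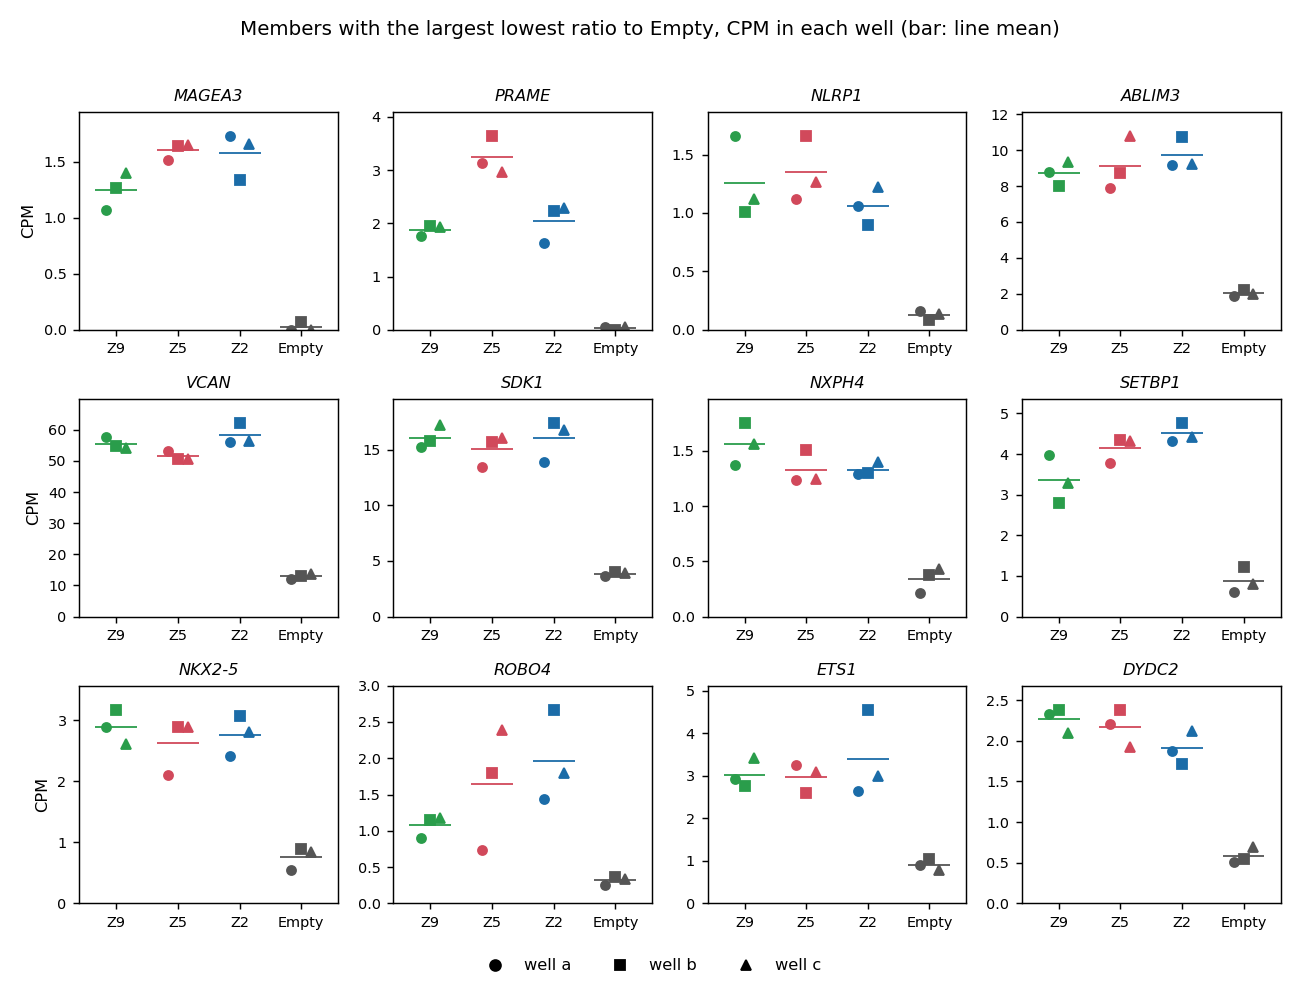
CPM in wells a, b and c (circle, square, triangle) and line means (bars) of Z9, Z5, Z2 and Empty for MAGEA3, PRAME and the 10 genes with the largest lowest ratio among those with at least 10 Empty counts. Each panel starts at 0 on its own scale, and in all 12 the 9 labelled wells lie above the 3 Empty wells.

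A group of 14 genes are best known from blood cells and vessels, with lowest ratios from 2.02 to 8.34. NLRP1, the sensor of an inflammasome, had 1.66, 1.01 and 1.12 CPM in Z9 wells, 1.12, 1.66 and 1.26 CPM in Z5 wells, 1.06, 0.896 and 1.22 CPM in Z2 wells and 0.157, 0.0862 and 0.138 CPM in Empty wells. All labelled wells were above all Empty wells, and the ratio of the pooled counts of Z2, its lowest line, was 8.41 with a counting interval of 5.37 to 13.8 from 22 Empty counts. ROBO4, a guidance receptor of endothelial cells, had 0.903, 1.15 and 1.17 CPM in Z9 wells, 0.741, 1.79 and 2.39 CPM in Z5 wells, 1.44, 2.67 and 1.79 CPM in Z2 wells and 0.256, 0.362 and 0.336 CPM in Empty wells. Its labelled wells spread from 0.741 to 2.67 CPM but stayed above Empty. TIE1, an endothelial receptor tyrosine kinase, averaged 4.85 ± 0.645 CPM in Z9, 5.28 ± 0.586 CPM in Z5, 5.59 ± 0.316 CPM in Z2 and 2.38 ± 0.439 CPM in Empty. PEAR1, a receptor of platelets and endothelium, averaged 1.60 ± 0.309 CPM in Z9, 2.01 ± 0.824 CPM in Z5, 2.71 ± 1.18 CPM in Z2 and 0.748 ± 0.107 CPM in Empty. Of the endothelial markers beside these vessel genes, CDH5 was likewise higher in all labelled wells, at 1.34 to 1.66 CPM by line against 0.484 CPM in Empty, and PECAM1 averaged 5.88 CPM in Z9, 4.61 in Z5, 5.65 in Z2 and 5.10 in Empty. VWF averaged 0.603 CPM in Z9, 0.505 in Z5, 0.556 in Z2 and 0.693 in Empty, KDR was at 0 and TEK at 2 counts or fewer. Their part in the result was not tested.

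Among the blood-cell genes, CD24, a heavily glycosylated surface protein, had the highest level, at 97.6, 114 and 126 CPM in Z9 wells, 95.3, 95.8 and 109 CPM in Z5 wells, 100, 118 and 100 CPM in Z2 wells and 41.3, 43.2 and 35.3 CPM in Empty wells. Every labelled well thus had more than the highest Empty well. CD4, the T helper co-receptor, averaged 1.94 ± 0.317 CPM in Z9, 2.10 ± 0.271 CPM in Z5, 2.55 ± 0.319 CPM in Z2 and 0.953 ± 0.201 CPM in Empty. Of the leukocyte markers, the macrophage gene CD68 averaged 56.7 CPM in Z9, 56.2 in Z5, 60.7 in Z2 and 46.6 in Empty, and CD14 averaged 0.778 CPM in Z9, 1.25 in Z5, 1.30 in Z2 and 1.01 in Empty. LYZ averaged 1653 CPM in Z9, 2025 in Z5, 1918 in Z2 and 1872 in Empty. CD3E and PTPRC had at most 1 and 2 counts in a well. The part of such cells in these levels was not tested. OSCAR, an immunoglobulin-like receptor of osteoclasts, averaged 7.23 ± 1.56 CPM in Z9, 5.93 ± 0.777 CPM in Z5, 6.90 ± 2.33 CPM in Z2 and 2.10 ± 0.719 CPM in Empty. Complement receptor C5AR1, the phagocytosis checkpoint SIRPA, SLAMF9, ADGRG3, the adaptor DOK1, GMFG and the antiviral membrane protein IFITM1 had lowest ratios of 2.08, 2.16, 2.59, 2.53, 2.02, 2.501 and 2.81, in that order. IFITM1 has a close copy, IFITM2, that overlaps it on the same strand, and the split of reads between them is uncertain. IFITM2 averaged 83.7 ± 11.95 CPM in Z9, 93.7 ± 11.2 CPM in Z5, 95.4 ± 9.49 CPM in Z2 and 55.7 ± 7.83 CPM in Empty. Its part in the IFITM1 level was not tested. Of 77 other tested genes of an interferon and antigen presentation list, 10 rose and 18 fell, against 13.0% and 12.6% of all genes tested. Their median log2 fold change was -0.02 against 0.00290 over all genes tested.

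A group of 7 genes encodes extracellular matrix proteins or their processing enzymes. VCAN, the large chondroitin sulfate proteoglycan versican, had 57.6, 54.9 and 54.0 CPM in Z9 wells, 53.2, 50.5 and 50.6 CPM in Z5 wells, 56.1, 62.2 and 56.4 CPM in Z2 wells and 12.2, 13.1 and 13.6 CPM in Empty wells. The labelled wells were tight and about 4 times the Empty wells, with ratios of 4.27 in Z9, 3.96 in Z5 and 4.48 in Z2. ITIH5, which stabilises hyaluronan-rich matrix, averaged 16.8 ± 0.904 CPM in Z9, 14.9 ± 0.431 CPM in Z5, 17.0 ± 0.879 CPM in Z2 and 5.47 ± 0.398 CPM in Empty. ADAMTS2 and PCOLCE2 serve the trimming of procollagen, and their lowest ratios were 2.60 and 2.41. The proteoglycan BGN, the thrombospondin THBS2 and the cartilage protein COMP had lowest ratios of 2.07, 2.41 and 2.07.

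The other tested genes of an extracellular matrix list were divided. Of 70, 24 rose, 9 fell and 37 did not pass the test, with a median log2 fold change of 0.15. SPARC, a matrix-binding glycoprotein, averaged 81.4 ± 2.04 CPM in Z9, 83.3 ± 4.43 CPM in Z5, 81.0 ± 6.24 CPM in Z2 and 45.2 ± 3.26 CPM in Empty (log2 fold change of the labelled mean 0.86, edgeR adjusted p = 8.41e-09). LAMC3, a laminin chain, averaged 1.79 ± 0.296 CPM in Z9, 1.78 ± 0.181 CPM in Z5, 2.27 ± 0.321 CPM in Z2 and 15.0 ± 1.75 CPM in Empty (log2 fold change -2.96, edgeR adjusted p = 1.17e-12). By the same test 13.0% of all genes tested were higher and 12.6% lower in the mean of the labelled lines than in Empty.

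A group of 15 genes is known from neurons, glia and synapses, with lowest ratios from 2.01 to 3.91. SDK1, a synaptic adhesion protein of the immunoglobulin superfamily, had 15.3, 15.8 and 17.3 CPM in Z9 wells, 13.5, 15.7 and 16.1 CPM in Z5 wells, 13.9, 17.4 and 16.8 CPM in Z2 wells and 3.62, 4.00 and 3.96 CPM in Empty wells. The 2 groups of wells were far apart, and the 3 labelled lines overlapped one another. HEPACAM, an adhesion protein of glia first described in liver cells, had 58.9, 61.4 and 66.8 CPM in Z9 wells, 63.9, 67.7 and 70.7 CPM in Z5 wells, 62.5, 64.4 and 59.7 CPM in Z2 wells and 26.4, 30.6 and 23.5 CPM in Empty wells. Its opposite-strand neighbour HEPN1 had 0 counts. CAMK2A, a kinase of synaptic plasticity, had 2.13, 2.00 and 2.51 CPM in Z9 wells, 1.38, 1.09 and 1.49 CPM in Z5 wells, 1.39, 1.64 and 1.24 CPM in Z2 wells and 0.393, 0.517 and 0.520 CPM in Empty wells. All 3 Z9 wells were above the other labelled wells.

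SCGN, a calcium sensor of endocrine and nerve cells, averaged 13.2 ± 1.63 CPM in Z9, 12.7 ± 1.83 CPM in Z5, 12.8 ± 1.84 CPM in Z2 and 6.06 ± 1.10 CPM in Empty. The vesicle protein SYT11 and BEX2 had lowest ratios of 2.07 and 2.14. The amyloid precursor adaptors APBA2 and APBB1 had 2.44 and 2.01, the Rac regulator CHN1 2.20, the adhesion protein IGLON5 2.12 and the splicing activator SRRM3 2.06. CNTNAP3 and CNTNAP3B, contactin-associated proteins with lowest ratios of 2.12 and 2.18, are near-copies of each other on chromosome 9, so that the pair is not 2 separate observations. Of 68 other tested genes of a neuronal and synaptic list, 18 rose, 3 fell and 47 did not pass the test, with a median log2 fold change of 0.17. The shares over all genes tested were 13.0% higher and 12.6% lower. CPLX1, a complexin of vesicle fusion, averaged 9.72 ± 0.962 CPM in Z9, 6.87 ± 0.342 CPM in Z5, 6.29 ± 1.14 CPM in Z2 and 3.30 ± 0.770 CPM in Empty (log2 fold change 1.17, edgeR adjusted p = 4.01e-06). HOMER2, a postsynaptic scaffold, averaged 18.7 ± 1.84 CPM in Z9, 17.3 ± 0.891 CPM in Z5, 18.7 ± 1.87 CPM in Z2 and 10.9 ± 0.921 CPM in Empty (log2 fold change 0.73, edgeR adjusted p = 3.28e-06).

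A group of 6 genes encodes transcription factors or other nuclear proteins, with lowest ratios from 2.07 to 3.83. MIXL1, a homeobox factor of mesendoderm, had 36.6, 49.3 and 50.8 CPM in Z9 wells, 55.1, 70.0 and 75.7 CPM in Z5 wells, 48.3, 73.4 and 71.0 CPM in Z2 wells and 21.2, 22.1 and 22.7 CPM in Empty wells. Its lowest ratio, 2.07 in Z9, was close to the limit, and the labelled wells varied more than the Empty wells. NKX2-5, the cardiac homeobox factor, had 2.90, 3.18 and 2.61 CPM in Z9 wells, 2.10, 2.90 and 2.89 CPM in Z5 wells, 2.41, 3.07 and 2.81 CPM in Z2 wells and 0.550, 0.896 and 0.841 CPM in Empty wells. SETBP1, a binding partner of the oncoprotein SET, had 3.99, 2.79 and 3.28 CPM in Z9 wells, 3.79, 4.34 and 4.33 CPM in Z5 wells, 4.33, 4.77 and 4.43 CPM in Z2 wells and 0.609, 1.22 and 0.795 CPM in Empty wells. For both genes the labelled and Empty wells were separate. ETS1, an ETS factor of lymphoid and vessel cells, averaged 3.03 ± 0.342 CPM in Z9, 2.98 ± 0.348 CPM in Z5, 3.39 ± 1.02 CPM in Z2 and 0.911 ± 0.120 CPM in Empty. KLF9, a zinc finger factor induced by glucocorticoids, averaged 3.43 ± 0.0917 CPM in Z9, 3.45 ± 0.350 CPM in Z5, 4.10 ± 0.204 CPM in Z2 and 1.17 ± 0.161 CPM in Empty. Of 92 other tested genes of a transcription factor list, 14 rose, 23 fell and 55 did not pass the test, with a median log2 fold change of -0.03. The shares over all genes tested were 13.0% higher and 12.6% lower.

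A group of 11 genes encodes ligands or other proteins of the secretory pathway. QSOX1, which forms disulfide bonds in secreted proteins, had 126, 148 and 145 CPM in Z9 wells, 122, 152 and 156 CPM in Z5 wells, 144, 165 and 178 CPM in Z2 wells and 60.1, 71.8 and 70.1 CPM in Empty wells. AREG, the EGF receptor ligand amphiregulin, had 19.96, 23.03 and 24.2 CPM in Z9 wells, 19.2, 17.4 and 21.2 CPM in Z5 wells, 22.4, 24.6 and 22.3 CPM in Z2 wells and 8.30, 10.3 and 8.93 CPM in Empty wells. In both, each labelled well was above every Empty well by more than 1.5-fold. ARSI, an arylsulfatase, averaged 48.2 ± 3.83 CPM in Z9, 39.9 ± 2.19 CPM in Z5, 45.9 ± 4.71 CPM in Z2 and 19.2 ± 1.40 CPM in Empty. NXPH4, a neurexophilin, averaged 1.56 ± 0.190 CPM in Z9, 1.33 ± 0.151 CPM in Z5, 1.33 ± 0.0631 CPM in Z2 and 0.341 ± 0.111 CPM in Empty. The trefoil peptide TFF3, the trypsin inhibitor SPINK1, the parathyroid hormone-related protein PTHLH, the ALK ligand FAM150B, the secretory pathway pseudokinase FAM20A, the pancreatic disulfide isomerase PDIA2 and the retroviral-derived ERVH48-1 had lowest ratios of 2.10, 2.92, 2.16, 2.18, 2.81, 2.56 and 2.40, in that order. SPINK1 reached 4.60 in Z9 and 4.51 in Z2.

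A pair of hormone and neurotrophin receptors stood at middle levels. AGTR1, the angiotensin II receptor, had 22.5, 27.6 and 25.2 CPM in Z9 wells, 25.6, 33.9 and 33.2 CPM in Z5 wells, 24.5, 31.8 and 28.6 CPM in Z2 wells and 8.20, 10.5 and 9.46 CPM in Empty wells. NGFR, the low-affinity neurotrophin receptor, had 24.7, 28.6 and 30.1 CPM in Z9 wells, 19.95, 23.3 and 28.5 CPM in Z5 wells, 25.8, 31.2 and 28.0 CPM in Z2 wells and 9.97, 11.97 and 10.7 CPM in Empty wells. In both receptors the labelled wells had about 2 to 3 times the Empty wells, without overlap. The 4 protease genes, KLK6, TMPRSS5, MEP1A and XPNPEP2, had lowest ratios of 2.18 to 2.53.

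A group of 3 genes lies in imprinted regions, where 1 parental copy is normally silent. ATP10A, a phospholipid flippase, averaged 17.0 ± 1.04 CPM in Z9, 17.3 ± 0.922 CPM in Z5, 20.9 ± 2.90 CPM in Z2 and 6.37 ± 0.825 CPM in Empty. ZDBF2 averaged 5.93 ± 0.119 CPM in Z9, 5.64 ± 0.644 CPM in Z5, 6.13 ± 0.784 CPM in Z2 and 2.24 ± 0.274 CPM in Empty. IGF2-AS overlaps IGF2 on the opposite strand, the strand setting of the counting is not given in the sources used here, and IGF2 had 110019 counts in Z9, 115384 in Z5, 121654 in Z2 and 92531 in Empty. The lowest ratio of IGF2-AS, 2.02 in Z2, is therefore uncertain. Of 31 other tested genes of an imprinted list, 12 rose and 2 fell, against 13.0% and 12.6% of all genes tested. Their median log2 fold change was 0.13. The count that fell moved by more than 1.5-fold in 11 alternative fits and stayed within that in 6.

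The remaining genes have mixed roles. ABLIM3, which links actin filaments to signalling through LIM domains, had 8.77, 8.02 and 9.32 CPM in Z9 wells, 7.89, 8.74 and 10.8 CPM in Z5 wells, 9.17, 10.7 and 9.21 CPM in Z2 wells and 1.89, 2.19 and 1.99 CPM in Empty wells. Its ratios were 4.31 in Z9, 4.52 in Z5 and 4.80 in Z2, and the lowest of them ranked after that of NLRP1 among members with at least 10 Empty counts. DNAJC12, a co-chaperone of aromatic amino acid hydroxylases, had 47.6, 53.1 and 53.1 CPM in Z9 wells, 44.5, 55.0 and 51.2 CPM in Z5 wells, 52.5, 59.5 and 55.8 CPM in Z2 wells and 21.2, 24.9 and 24.4 CPM in Empty wells. EEF1A2, a tissue-restricted elongation factor with the abundant copy EEF1A1, averaged 8.53 ± 1.60 CPM in Z9, 6.999 ± 0.679 CPM in Z5, 9.34 ± 1.19 CPM in Z2 and 2.45 ± 0.381 CPM in Empty, and reads shared with that copy make its level uncertain. DYDC2 averaged 2.27 ± 0.153 CPM in Z9, 2.17 ± 0.231 CPM in Z5, 1.91 ± 0.205 CPM in Z2 and 0.583 ± 0.0926 CPM in Empty. The channel and ion-handling genes KCNK13, KCNE3, FXYD5 and HRC had lowest ratios of 2.11 to 2.27, and the cytoskeletal, GTPase and kinase genes had 2.01 to 4.31. For 3 genes of RNA binding, translation and chaperones they were 2.135 to 2.862, and for 8 genes without a group 2.053 to 3.266. FLJ23867 had no match in the RefSeq table and is named only, and the pseudogene AQP7P3 shares sequence with AQP7. BGN, CAMK2A, DYDC2, FAM20A, LARP6, DOK1, BEAN1 and C16orf45 overlap a protein-coding gene on the opposite strand, so that reads in the overlap could not be told apart. Many others overlap only genes of other kinds there, with the same limit. Among them are PRAME, ABLIM3, VCAN, SDK1, ROBO4, ETS1, NGFR, DNAJC12 and PRKD1. Of the protein-coding partners, PRKAR1A beside FAM20A averaged 292 ± 4.66 CPM in Z9, 312 ± 5.68 CPM in Z5, 311 ± 9.53 CPM in Z2 and 267 ± 5.61 CPM in Empty. LOXL3 beside DOK1 averaged 12.9 ± 0.979 CPM in Z9, 15.0 ± 2.14 CPM in Z5, 16.9 ± 3.59 CPM in Z2 and 7.47 ± 1.31 CPM in Empty. HAUS7 beside BGN averaged 6.57 ± 0.182 CPM in Z9, 6.51 ± 0.460 CPM in Z5, 5.78 ± 0.418 CPM in Z2 and 7.04 ± 0.521 CPM in Empty.

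Levels of different genes are comparable only per length. Per kilobase of exon, the mean over Z9, Z5 and Z2 was highest for CD24 at 34.9 CPM per kb, MIXL1 at 29.03, DNAJC12 at 26.6, HEPACAM at 17.8, AREG at 17.4 and QSOX1 at 15.9 CPM per kb. MAGEA3 and PRAME, with the widest ratios, had 0.824 and 0.798 CPM per kb. Over the 86 genes with an exon length the median was 1.34 CPM per kb in the labelled lines and 0.433 in Empty, against 7.70 and 7.75 CPM per kb over 12146 expressed genes. Of the 86, 10 were above that expressed median in the labelled lines. Without the length, the Empty mean was under 1 CPM in 36 of the 87, and in 18 the labelled mean was 10 CPM or more. The median was 267 Empty counts over the 3 wells. The median coefficient of variation between wells was 10.3% in Z9, 12.6% in Z5, 12.8% in Z2 and 15.3% in Empty, against 4.81%, 4.77%, 7.95% and 4.76% over expressed genes. For 71 of them with an Empty mean under 5 CPM it was 10.7% in Z9, 13.1% in Z5, 14.6% in Z2 and 16.1% in Empty, and for the 1893 other expressed genes under 5 CPM it was 11.2%, 10.99%, 13.2% and 11.6%.

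**Figure D3:**
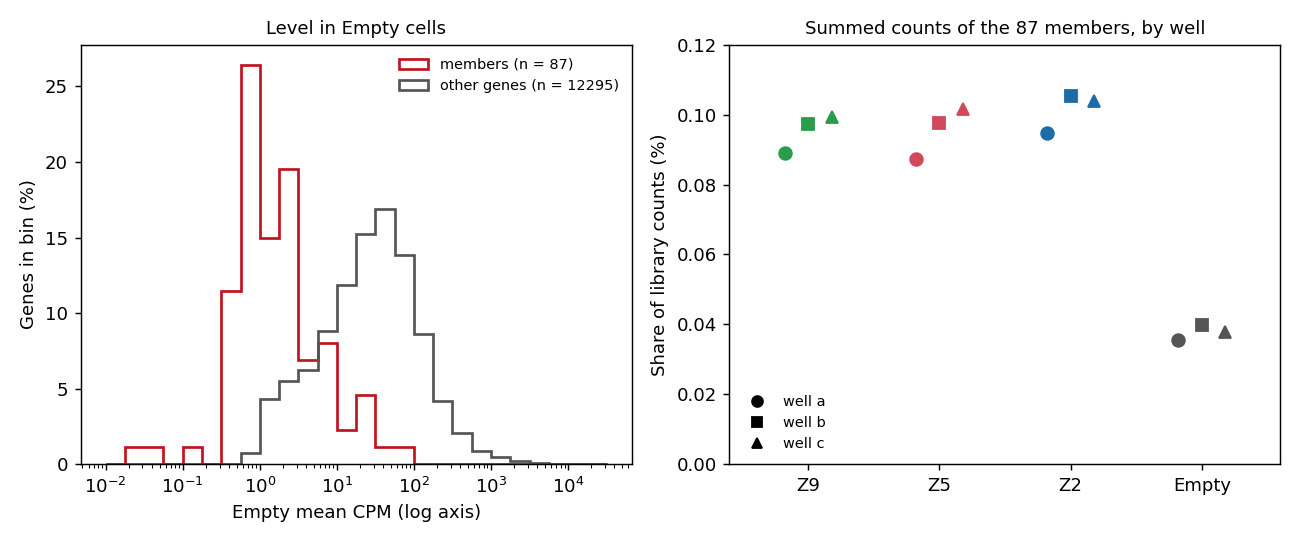
Left, share of genes per bin of Empty mean CPM (log axis) for the 87 genes (red) and the other expressed genes (grey); right, summed counts of the 87 genes as a share of each library, by well, in Z9, Z5, Z2 and Empty. The 87 genes have a median of 1.51 CPM in Empty, not scaled to gene length, and well a is the lowest of the 3 wells in each of the 4 lines.

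Together the 87 genes took 0.0889% to 0.0992% of counts in Z9 wells, 0.0872% to 0.102% in Z5 wells, 0.0948% to 0.105% in Z2 wells and 0.0354% to 0.0397% in Empty wells. Well a had the lowest share in each line, at 0.0889% in Z9, 0.0872% in Z5, 0.0948% in Z2 and 0.0354% in Empty. Well a was the lowest well in all 4 lines for 26 of the 87, or 29.9%, against 4.87% of expressed genes. For well b the shares were 0% and 1.24%, and for well c 1.15% and 1.29%. The 26 included ROBO4, TIE1, PEAR1, IFITM1, CD4, MIXL1, QSOX1, AGTR1, NGFR and SDK1. What the letters mean beyond the well is not given in the labels, and their part was not tested. Within a letter, the 2-fold limit was met by 74 genes in a, 57 in b and 67 in c, which follows in large part from how the genes were chosen.

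The difference among Z9, Z5 and Z2 was not used by the choice beyond its lower limit, and it was tested by edgeR's quasi-likelihood test on 15289 genes with Benjamini-Hochberg adjustment. Of the 87 genes, 2 differed among the 3 lines in the F test at an adjusted p under 0.05, PRKD1 (adjusted p = 0.00825) and PRAME (adjusted p = 0.0357). That is 2.30%, against a background of 2.24% of all genes tested. With the well letter as a block in the fit, 11 differed, or 12.6% against 6.38% of all genes tested. PRKD1, protein kinase D1 of diacylglycerol signalling, had 3.89, 3.96 and 4.22 CPM in Z9 wells, 7.25, 7.07 and 6.98 CPM in Z5 wells, 5.98, 6.94 and 6.09 CPM in Z2 wells and 1.61, 1.19 and 2.12 CPM in Empty wells. The Z9 wells were below every Z5 and Z2 well and above every Empty well.

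By pairs, Z9 minus Z2 called 0 of the 87 higher and 1 lower, against 1.96% higher and 3.21% lower over all genes. The gene lower in Z9 was PRKD1, with a log2 fold change of -0.68 (SE 0.136, edgeR adjusted p = 0.0151). Z9 minus Z5 called 0 higher and 2 lower, against 0.432% and 1.09% over all genes. They were PRKD1, with a log2 fold change of -0.85 (SE 0.135, edgeR adjusted p = 0.00408), and PRAME, with -0.81 (SE 0.180, edgeR adjusted p = 0.0300). Z5 minus Z2 called 0 higher and 0 lower, against 0.00654% and 0%. At an unadjusted edgeR p under 0.05 there were 19 of the 87 in Z9 minus Z2, or 21.8%, against 23.9% of all genes tested. There were 18 in Z9 minus Z5, or 20.7% against 14.5%, and 15 in Z5 minus Z2, or 17.2% against 10.3%. DESeq2 at its adjusted p called 7 in Z9 minus Z2, or 8.05% against 11.7%, and 5 in Z9 minus Z5, or 5.75% against 3.83%. In Z5 minus Z2 it called 0 of the 23 members that it gave an adjusted p, against 0.0904% of all genes with one. With the well letter as a block, edgeR called 11 in Z9 minus Z2, or 12.6% against 9.89%. By that fit it called 7 in Z9 minus Z5, or 8.05% against 3.19%, and 0 in Z5 minus Z2, against 0.00654%. CAMK2A was higher in Z9 by 0.61 over Z2 and 0.71 over Z5 on the log2 scale, and neither passed (edgeR adjusted p = 0.0528 and 0.0525). The call of PRAME ended when any Z5 or Z9 well was left out, with adjusted p of 0.0517 to 0.195, and that of PRKD1 in Z9 minus Z2 ended without Z9 well a or b, at 0.0642 and 0.0657. The count of 2 in the F test was 9 without Z2 well a, 4 without Z2 well b, 0 without Z9 well a or b, and 1 without Z2 well c, Empty well c, Z9 well c or any Z5 well.

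**Figure D4:**
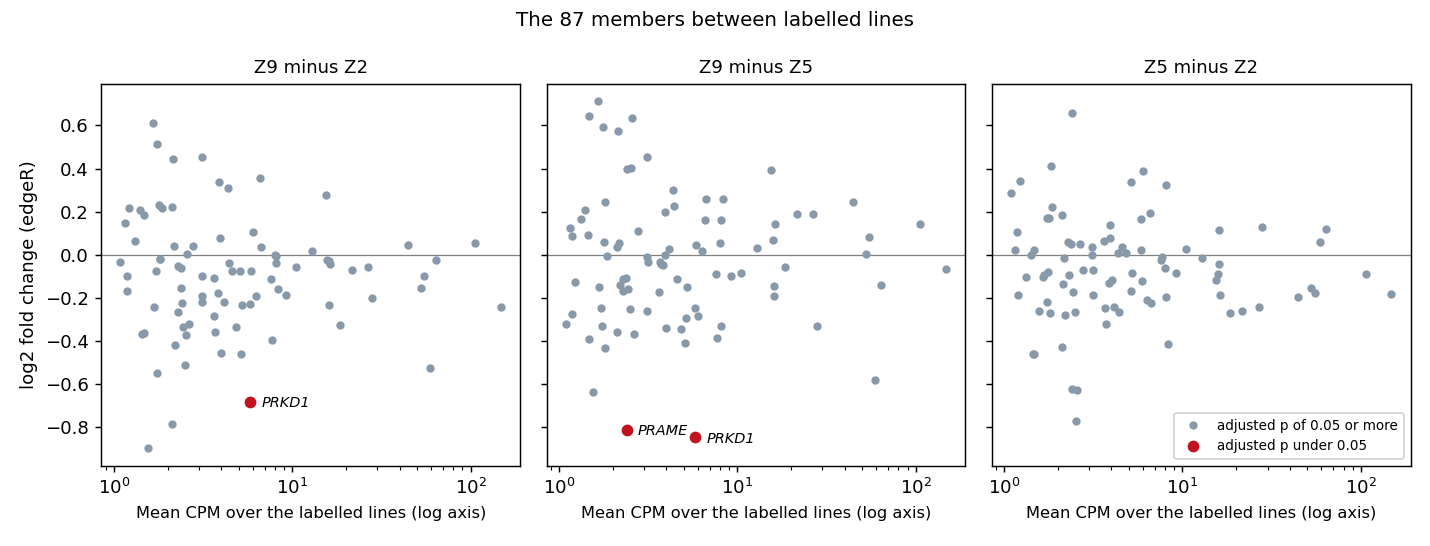
log2 fold change of the 87 genes in Z9 minus Z2, Z9 minus Z5 and Z5 minus Z2 against their mean CPM over the labelled lines (log axis); red points have an edgeR adjusted p under 0.05. PRKD1 is red in the first panel, PRKD1 and PRAME in the second, and none in the third.

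Across the 3 lines the order of levels was mixed. Z2 had the highest mean in 37 genes, Z9 in 26 and Z5 in 24, and the lowest mean was in Z9 for 40, in Z5 for 33 and in Z2 for 14. The median log2 fold change was -0.08 for Z9 minus Z2, -0.03 for Z9 minus Z5 and -0.08 for Z5 minus Z2, against 0.00147, -0.00220 and -0.00138 over all genes tested. The highest labelled mean was 1.20 times the lowest in the median, against 1.11 over expressed genes and 1.18 over the other expressed genes under 5 CPM in Empty. It was 1.5 or more in 11 genes, among them ROBO4 at 1.83, PRKD1 at 1.76, PRAME at 1.73, CAMK2A at 1.68, SPINK1 at 1.58 and PTHLH at 1.52.

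The genes were spread over most chromosomes of assembly GRCh38.p14, with 10 on chromosome 19, 8 each on chromosomes 5 and 11 and none on chromosomes 8 and 13. Of the 8 on chromosome 5, 7 of them, SPINK1, ABLIM3, AFAP1L1, CAMK2A, ARSI, NKX2-5 and ADAMTS2, lay between positions 147824582 and 179345461. That interval was drawn after their positions were seen. It held 123 expressed genes, so that 5.69% of them were among the 87, against 0.653% elsewhere. Of the 116 others there, 12 had all labelled wells above and 12 all labelled wells below the Empty wells. Over expressed genes the share with all labelled wells above was 10.6%, and the share below was not worked out. The median log2 ratio of labelled to Empty was 0.0394 for the 116 others and 0.0006 over all expressed genes. Of all 87, 4 pairs lay within 300000 bases of each other. CAMK2A and ARSI were 6213 bases apart, ABLIM3 and AFAP1L1 11317, ROBO4 and HEPACAM 21340 and IGLON5 and LIM2 49018 bases apart.

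Promoter windows of 300 bases were found for 67 of the 87 genes in the RefSeq table. The first window listed for a gene was used, without a check that it lies at the gene start. The window of SDK1, far inside the gene, is thus among the 67, and the other expressed genes were treated alike. A CCAAT box on either strand was in 17.9% of them, against 36.9% of 9792 other expressed genes, 35.4% of 1284 other expressed genes under 5 CPM in Empty and 34.6% of all 35116 promoters. A GC box, GGGCGG, was in 62.7%, against 70.7%, 63.3% and 45.0%. The AP-1 motif TGANTCA was in 4.48% against 4.33%, 6.07% and 7.71%, the TATA motif TATAAA in 8.96% against 5.15%, 7.01% and 11.5%, and the E-box CACGTG in 7.46% against 10.4%, 7.55% and 7.26%. The hypoxia response core ACGTG, which also matches inside that E-box, was in 17.9% against 27.1%, 22.5% and 21.4%. The forkhead motif TGTTTAC was in 4.48% against 2.28%, 1.87% and 3.42%, the TCF/LEF motif ATCAAAG in 1.49% against 1.38%, 1.48% and 2.62%, and the TEAD motif GGAATG in 14.9% against 10.8%, 12.2% and 14.0%. The CpG ratio, observed over expected from the base composition, was under 0.4 in 26.9%, against 9.98%, 22.6% and 40.6%, with a median of 0.651 against 0.844, 0.758 and 0.579. The printed promoters had CpG ratios of 0.791 in ABLIM3, 0.549 in VCAN, 0.664 in MAGEA3 and 0.481 in PRAME. These shares describe letters in a window, and no factor was measured.

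At the 2-fold limit, the genes just inside were VILL at 2.01, APBB1 at 2.01 and DOK1 at 2.02, and those just outside were PPFIA4 at 2.00, FLRT3 at 1.99 and B3GNT7 at 1.98. At the level limit, LIM2, NLRP1 and ROBO4 were just inside with lowest labelled means of 1.01, 1.06 and 1.07 CPM, and ADAMTS16, TRABD2B and PROCR just outside with 0.992, 0.989 and 0.977 CPM. Leaving out 1 well at a time gave 76 to 97 genes, and 52 of the 87 were found in all 12 of these sets. With a 1.5-fold limit 244 genes were found and with a 3-fold limit 13, and 24 had every labelled well at 2 times the highest Empty well or more.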

How the data were processed

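RNA of 12 HepG2 wells was sequenced, 3 wells for each of 4 lines. The deposited values are raw whole-number counts per gene symbol, made by the authors with STAR, featureCounts and the hg38 genome, per the submitters' processing notes, with versions, annotation, strand setting and treatment of multiply mapping reads not given in the sources used here. CPM were computed on the raw library totals. edgeR 4.0.16 in R 4.3.3 tested 15289 genes (filterByExpr with a minimum count of 10, TMM, robust quasi-likelihood fit of 4 group means to 12 libraries, 8 residual degrees of freedom, Benjamini-Hochberg adjustment). DESeq2 1.42.0 was an alternative. Tested on simulated counts for Z9 minus Z2 on 15134 genes, the test recovered 72% of genes changed 1.5-fold and 94% of those changed 2-fold. Recovery was not worked out for the genes described here alone. Their median labelled level was 3.85 CPM, against 28.3 CPM over expressed genes. Their median coefficient of variation was 10.3% against 4.81% in Z9 and 12.8% against 7.95% in Z2. The simulated shares therefore do not tell how often such changes would be found in the genes described here. Genes set aside by symbol are not described here. The genes, gene lists and role groups were chosen with earlier results of these data known. Named genes were the largest 10 ratios and levels, genes with under 10 Empty counts, called genes in pairs of lines, genes nearest the limits, and up to 4 members and 2 others of each list with 3 or more members; lowest ratios of the other members are given by role. Names, positions and promoters come from RefSeq GRCh38.p14 (83 genes by symbol, 3 by synonym, 1 unmatched), exon lengths and overlaps from GENCODE. Counting intervals are exact conditional 95% intervals on counts pooled over wells, and they do not allow for the choice of the genes.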

Additional observations from a re-analysis of the deposited data

Results flagged for a closer look

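Among the 87 genes, a difference between labelled lines passed edgeR's test for 2 in the fit without a well block. With the well letter as a block, 11 differed among the lines, or 12.6% against 6.38% of all genes tested. PRKD1 was lower in Z9 than in Z2 by a log2 fold change of -0.68 (adjusted p = 0.0151) and lower in Z9 than in Z5 by -0.85 (adjusted p = 0.00408). PRAME was lower in Z9 than in Z5 by -0.81 (adjusted p = 0.0300). In PRKD1 and PRAME each Z9 well lay below each Z5 well. With 3 wells per line, single wells were not screened for standing apart.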

How the results depend on the processing

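The number of doubled genes was 86 with TMM-scaled library sizes, 85 with DESeq2 size factors, 110 and 59 with level limits of 0.5 and 2 CPM, 97 with medians over wells, 244 and 13 with 1.5-fold and 3-fold limits, 24 where every labelled well had to be 2 times every Empty well, and 76 to 97 without single wells. Against 2 genes that differed among the labelled lines, DESeq2 called 7, no filter 4, and single wells left out gave 0 to 9. Against 1 in Z9 minus Z2, DESeq2 called 7, no filter 3, a minimum of 1 CPM in 3 libraries 3, and wells left out 0 to 9. Against 2 in Z9 minus Z5, DESeq2 called 5, no filter 4, a fit of these 2 lines alone 6, and wells left out 1 to 5. Z9 minus Z2 called 9 without Z2 well a, 2 without Empty or Z5 well a and 0 without Z9 well a or b, and Z9 minus Z5 called 4 and 5 without Z2 wells a and b and 1 without any Z5 or Z9 well. All genes called in the mean of the labelled lines minus Empty numbered 3911, and 2107 to 4787 without single wells, the fewest without Empty well a. Same-lettered wells deviated together by a correlation over 0.1 in 5 of 18 pairs over all genes tested. Of these pairs, 4 were among the 6 of letter a and none was of letter c. The letters were not taken as pairing in the main fit. Among the 87 genes, however, well a was the lowest in all 4 lines for 29.9%, against 4.87% of expressed genes. That choice is therefore not settled for them. With the replicate block, 11 members differed among the lines (12.6%, against 6.38% of all genes tested), 11 in Z9 minus Z2 (12.6% against 9.89%), 7 in Z9 minus Z5 (8.05% against 3.19%) and 0 in Z5 minus Z2 (against 0.00654%), and 4337 genes were called against Empty. The causes were not tested. Z5 minus Z2 called 0 of the 87 under every alternative run. The lowest ratios of the 19 genes named by ratio or level moved by less than 1 SD in all 15 alternatives. Leaving out 1 of 3 wells can hardly move a mean by 1 SD, so this says little. Of these genes, NLRP1, QSOX1, MIXL1, NGFR, AREG and ARSI each left the set without some single well. QSOX1, for example, fell to 1.97 without Empty well a. Counting error limits the lowest genes.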
